A study of Mus musculus with 96 samples.

Results

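The cytosolic ribosome holds a large and a small subunit, each built from ribosomal RNA and many small proteins that are mostly encoded by single-copy genes. The genes described here were taken by symbol: Rpl or Rps with a number (and at most one of the letters a, x, y or l), Rplp0 to Rplp2, and Rpsa. The rule found 82 genes among the 40202 listed, 51 of the large subunit and 31 of the small one. Of these, 77 had a count in a kept cell and 76 reached a mean of 5 CPM (counts scaled to a total of 1000000 per group or cell), the level required for a ratio between groups. The rule itself uses names only.

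The study made 96 libraries from C10, an established mouse lung line that its labels call alveolar type II epithelial, with 1 sorted cell in each library. In all, 48 libraries came from cells with no treatment (control), and 48 came from cells given RO-3306, sold as an inhibitor of the mitotic kinase CDK1, at a labelled dose of 10 nM for 36 h. The protocol text that gives this dose stands unchanged on the control libraries, and the dose was not checked. Both groups grew in the same serum-containing medium, and no vehicle is named for the control. Libraries under 50000 counts or 1000 genes were set aside, which left 29 control and 37 RO-3306 cells. Titles carry a letter, A to D, whose meaning is not given, and these lettered sets held 10, 8, 6 and 5 kept control cells and 10, 10, 11 and 6 kept RO-3306 cells. No culture or passage is named, so that each treatment was 1 sample and no test between treatments was possible. Where a pair of levels is given, control comes first. Intervals below are exact 95% intervals (Poisson for levels, Clopper-Pearson for shares and ratios) that cover counting error only, and the reads include PCR copies.

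Kept control cells held 59979 to 6457215 counts, and kept RO-3306 cells 295005 to 5321880. Of the type II cell markers, Sftpa1, Sftpc, Sftpd and Slc34a2 were at 0 in both groups, and the list of 8 markers had 23.2 CPM in control cells and 24.1 in treated ones. The 6 epithelial markers summed to 1.78 and 0.98 CPM and the 5 macrophage markers to 28.1 and 45.4 CPM, most of it Cd14. The 6 mesenchymal markers, none of them at 0, had a sum of 5579 CPM without and 2523 CPM with RO-3306, and their part in the ribosomal protein values was not tested. Mitochondrially encoded genes took 3.31% of control counts and 4.93% of RO-3306 counts. Libraries that stood apart were RO-3306 A11, with 56 ribosomal protein genes detected where every other kept RO-3306 cell had at least 73, RO-3306 B3, with 56.0% mitochondrial counts, and control C3, with 2109 genes in all, the fewest among kept control cells.

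Ribosomal protein mRNAs are among the most abundant of a growing cell. Many start with a run of pyrimidines, the terminal oligopyrimidine (TOP) tract, through which the kinase mTOR and the RNA-binding protein LARP1 govern their translation together. Some of the proteins also act outside the ribosome, such as Rpl5 and Rpl11, which bind the p53 ubiquitin ligase MDM2 as part of the 5S ribonucleoprotein. Rps27l, a close copy of Rps27, is known as a target of p53.

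The start regions of 4 genes on which the results turn are shown first. They are Rps27l, the gene with the highest ratio of RO-3306 to control, its sister gene Rps27, and Rps12 and Rpl5, the genes with the lowest ratios. Each runs 5′ to 3′ from 100 bases before to 20 bases after a RefSeq start (build GRCm38.p6). For Rps27l (chr9:66945986-66946105, plus strand) the first of its entries was used, and the others are Rps27 (chr3:90213629-90213748, minus strand), Rps12 (chr10:23787190-23787309, minus strand) and Rpl5 (chr5:107900428-107900547, plus strand). Capitals mark the GABP core of the ETS family (CCGGAAGT, either strand), the YY1 core (AAGATGGC, either strand), the TATA box (TATAAA, sense strand) and, within 30 bases of the start, the letters CTTTC on the sense strand. Matches were allowed to overlap.
Rps27l: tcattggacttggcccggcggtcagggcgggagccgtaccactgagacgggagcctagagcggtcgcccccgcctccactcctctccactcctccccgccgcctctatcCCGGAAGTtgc
Rps27: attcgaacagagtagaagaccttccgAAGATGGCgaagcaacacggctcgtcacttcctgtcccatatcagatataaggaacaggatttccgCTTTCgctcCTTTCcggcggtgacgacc
Rps12: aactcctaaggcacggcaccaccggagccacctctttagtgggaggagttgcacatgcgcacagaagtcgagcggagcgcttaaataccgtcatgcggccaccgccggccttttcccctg
Rpl5: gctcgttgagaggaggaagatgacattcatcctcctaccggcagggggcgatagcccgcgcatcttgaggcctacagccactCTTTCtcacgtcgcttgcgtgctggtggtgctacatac

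The paralogs differed in these letters: the Rps27l window held a GABP core just after the start and no CTTTC near it, while the Rps27 window held a YY1 core and CTTTC on both sides of the start. The RefSeq table matched 61 of the 82 genes, with 73 start windows in all. In the 60 bases around the start, 31.5% of these windows held CTTTC, against 7.93% of all 32851 windows in the table. In the full 300 bases, the GABP core was in 16.4% of ribosomal protein windows against 3.89% of all, the YY1 core in 9.59% against 2.75%, and the TATA box in 8.22% against 8.32%. Of the ratios of RO-3306 to control described below, the 20 measured genes with CTTTC had a median of -0.13 on the log2 scale and the 36 matched and measured genes without it -0.19.

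Summed over kept cells, ribosomal protein genes took 5.79% of all control counts and 5.53% of all RO-3306 counts. Large subunit genes took 3.60% and 3.53%, and small subunit genes 2.19% and 2.00%, so that the large subunit held 62.2% of ribosomal protein counts in control and 63.8% in RO-3306. In single cells the ribosomal protein share ran from 2.27% (control D10, the shallowest library) through a median of 6.05% to 9.90% (control C3). In RO-3306 cells it ran from 1.30% (A11, where 18.1% of counts were mitochondrial) through a median of 5.41% to 7.55% (C4). The groups overlapped over nearly their whole range. With mitochondrial counts left out of the total, the medians were 6.32% and 5.83%.

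The difference in share was largest in set A and did not hold without it. There the median share was 6.52% in control and 5.09% in RO-3306 cells. In set B the medians were 5.77% and 5.52%, in set C 6.22% and 6.17%, and in set D 4.88% and 5.36%. Without set A the summed share was 5.51% in control and 5.62% in RO-3306, which turned the sign of the difference from -0.26 to 0.11 percentage points, and the difference in cell medians turned from -0.64 to 0.20 percentage points. Across cells, the large and small subunit shares went together (Pearson r = 0.91 over 29 control cells and 0.95 over 37 RO-3306 cells). The ribosomal protein share also went with the mitochondrial share across control cells (rho = 0.68), and across RO-3306 cells rho was 0.45 while r was -0.09. Both members of each pair are shares of the same counts in the same library, and the part of the mitochondrial share was not tested.

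**Figure D1:**
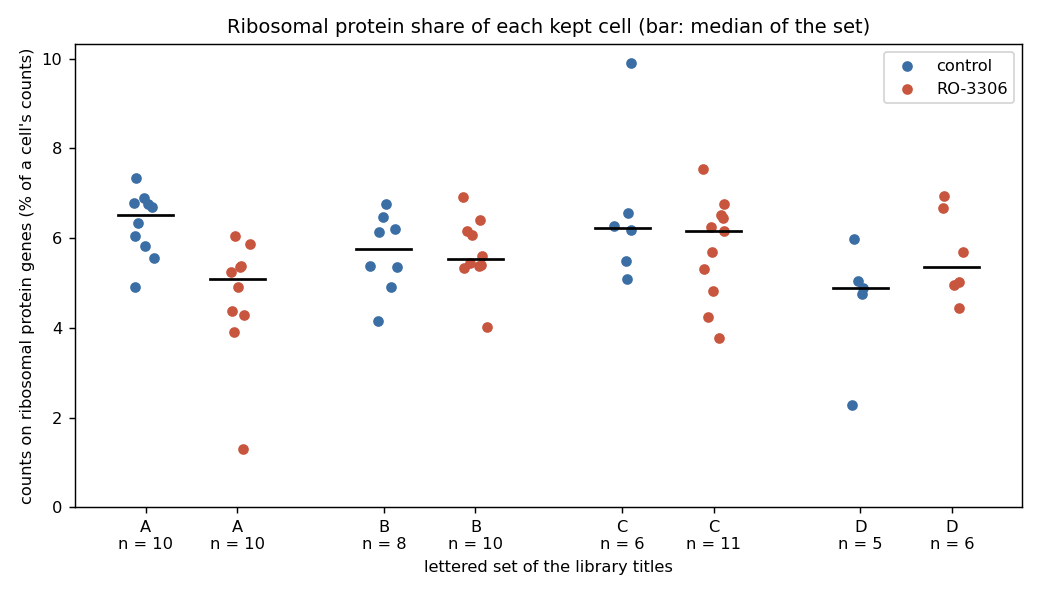
Percent of each kept cell's counts that fell on ribosomal protein genes, by lettered set, with 1 point per cell (blue control, red RO-3306) and a bar at the median of each set. In set A the medians are 6.52% and 5.09%, in set D they lie in the other order at 4.88% and 5.36%, and the points of the groups overlap in every set.

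For each gene the ratio of the groups was taken as log2((RO-3306 CPM + 1)/(control CPM + 1)). The 76 ribosomal protein genes kept close together: their median ratio was -0.12, with quartiles of -0.32 and 0.09. The median was -0.22, with quartiles of -0.98 and 0.43, over all 9374 genes of at least 5 CPM. Much of that wide spread lay among less abundant genes: the quartiles were -0.32 and 0.39 over genes of at least 500 CPM. The median of small subunit genes was -0.23 (8 of 30 above 0) and that of large subunit genes -0.06 (20 of 46 above 0). In sets A to D the small subunit medians were -0.39, -0.17, -0.19 and 0.24. The large subunit medians were -0.26, -0.005, 0.08 and 0.05, so that the order of the subunits turned in set D. Only Rps27l was at least 1.5-fold higher in RO-3306 cells, and 4 genes, Rps12, Rpl5, Rpl7 and Rps28, were at least 1.5-fold lower. Over all genes of at least 5 CPM, 20.6% were that much higher and 36.2% that much lower. Because ribosomal protein mRNAs are abundant, genes of at least 500 CPM are a nearer measure, and there 17.7% were higher and 10.3% lower, against 1 and 2 of 49 ribosomal protein genes. Scaling by TMM factors moved every log2 ratio up by 0.21 and scaling by DESeq2 size factors by 0.24, which put the median ratio of the ribosomal protein genes at 0.09 and 0.11. With these scalings 6 and 6 of the genes were past 1.5-fold higher and 2 and 1 past 1.5-fold lower, where scaling by totals gave 1 and 4. Over all genes of at least 5 CPM, 26.7% and 27.6% were then that much higher and 29.7% and 29.1% that much lower. A ratio between -0.21 and 0 by totals, such as that of Rps6, Rpl11 or Rpl4 below, is above 0 with both scalings. Thus 28 of 76 genes were above 0 by totals, 45 with TMM and 49 with DESeq2 size factors. Of all 9374 genes of at least 5 CPM, 3848 were above 0 and 5526 below by totals. The median of all those genes was -0.009 with TMM and 0.015 with DESeq2 size factors. By totals, the ribosomal protein median lay 0.10 above that of all genes of at least 5 CPM. It lay below that of all genes at the other filters, with -0.12 against -0.09 for at least 50 CPM and -0.10 against 0.05 for at least 500 CPM.

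**Figure D2:**
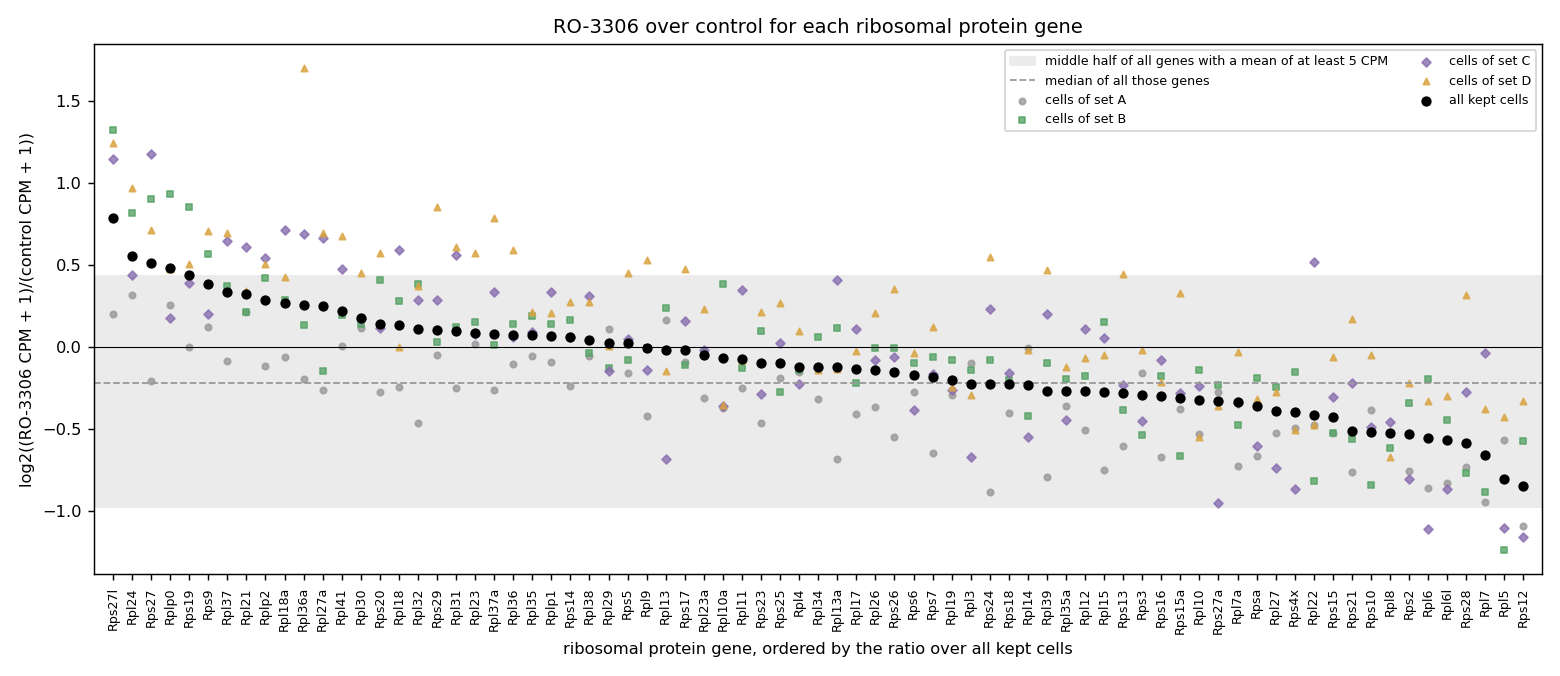
Log2 ratio of RO-3306 to control CPM for 75 of the 76 ribosomal protein genes of at least 5 CPM, over all kept cells (black) and within each lettered set (coloured), above a band for the quartiles of all genes of that level. The black points run from 0.79 for Rps27l to -0.85 for Rps12, and the grey points of set A lie mostly below 0.

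Rps27l had the highest ratio of the 76. Its level ran from 134.6 (D7) through a median of 971 to 2015 CPM in control cells and from 0 (A11) through 1562 to 3720 CPM in RO-3306 cells. The RO-3306 cells lay higher as a group, and the ranges overlapped. The summed levels were 960 CPM (952 to 967) and 1659 CPM (1651 to 1668), 1.73-fold higher, with log2 ratios of 0.20, 1.32, 1.15 and 1.25 in sets A to D. Its gene lies at chr9:66851906-66856804 (build GRCm39, as are all gene spans below) with no other gene span over it. Without lettered set B its log2 ratio was 0.54, below the 1.5-fold mark.

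Rps27 encodes the sister protein, which carries a zinc finger and sits on the small subunit. Its summed level was 377 CPM without RO-3306 and 538 CPM with it, with cells from 0 (C3) through 335.6 to 633 CPM and from 64.7 (A11) through 468 to 1092 CPM. Its log2 ratio was 0.51, with -0.21 in set A and 0.90, 1.18 and 0.72 in sets B to D. Of the counts on the pair, Rps27l took 71.8% (71.5% to 72.1%) in control and 75.5% (75.3% to 75.7%) in RO-3306. In single cells the median of that share was 70.7% in control and 75.8% in RO-3306. Counts split between near-identical copies can move between such genes, and 57.3% of the libraries with a count on Rps27l and 73.3% of those with one on Rps27 held a fractional value.

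The next ratios in order were those of Rpl24 and, after Rps27, Rplp0 and Rps19. Rpl24, which forms a bridge between the subunits, had summed levels of 352 and 517 CPM (log2 ratio 0.55, above 0 in all 4 sets). Its cells ran from 141.7 through 376 to 627 CPM in control and from 22.3 through 538 to 790 CPM in RO-3306. Rps19, a small subunit protein needed for ribosomal RNA processing, had 1063 and 1445 CPM (0.44), with -0.002 in set A and values above 0 in the others.

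Rps12, a protein of the small subunit head, had the lowest ratio. Control cells ran from 233.4 (D10) through a median of 589 to 1627 CPM (C3), and RO-3306 cells from 0 (A11) through 335 to 597 CPM. The median control cell lay close to the highest RO-3306 cell. The summed levels were 627 CPM (621 to 633) and 348 CPM (344 to 352), with log2 ratios of -1.10, -0.57, -1.16 and -0.33 in sets A to D. The gene lies at chr10:23661081-23663281 and holds 3 snoRNA genes. RefSeq lists 23 pseudogenes named after it, as many as after Rpl31 and more than after any other member, and 82.7% of its libraries held a fractional value.

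Rpl5 and Rpl11 carry the 5S ribosomal RNA into the large subunit together, and their values parted. Rpl5 (chr5:108048388-108056871) ran from 108.2 (D7) through 825 to 1456 CPM in control cells and from 0 (A11) through 466 to 804 CPM in RO-3306 cells. Its summed level was 830 CPM (823 to 837) without and 473 CPM (468.7 to 477.6) with the compound, a log2 ratio of -0.81 that was below 0 in all 4 sets (-0.57, -1.24, -1.10 and -0.43). Rpl11 had 471 and 447 CPM, a log2 ratio of -0.08, with 0.35 in set C and values below 0 in the others. Of the counts on the pair, Rpl5 took 63.8% (63.5% to 64.1%) in control and 51.4% (51.1% to 51.8%) in RO-3306. Per cell the medians were 65.2% and 52.1%. These are shares of counts, and levels per kb of mRNA stood in the other order. Rpl11 had 565 against 406 CPM per kb for Rpl5 in control, and 536 against 231.4 in RO-3306. That order rests on the annotated mRNA lengths. Rpl5 has 2045 nt for a coding sequence of 891 nt, and Rpl11 has 833 nt for 534 nt. Rpl5 held 3 snoRNA genes, 15.6% of its span was covered by other gene spans, and 97.2% of its libraries held a fractional value.

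Rpl7, a large subunit protein, and Rps28, which lies where mRNA leaves the small subunit, were the other genes past 1.5-fold. Rpl7 ran from 359 through 1473 to 3178 CPM in control cells and from 394 through 1055 to 2537 CPM in RO-3306 cells, ranges that overlapped almost fully. Its summed levels were 1623 and 1028 CPM (log2 ratio -0.66), with -0.95 and -0.89 in sets A and B but -0.04 in set C. Rps28 had 271 and 180.3 CPM, a log2 ratio of -0.59 at the very edge of the 1.5-fold mark, and 0.32 in set D. Leaving out any of 26 cells in turn moved Rps28 inside the mark, control B5 also did so for Rpl7, and Rpl5, Rps12 and Rps27l stayed past it whichever cell was left out. With TMM and DESeq2 scaling the log2 ratio was -0.45 and -0.42 for Rpl7 and -0.38 and -0.35 for Rps28, inside the mark, and Rpl5 stayed past it with TMM (-0.60) but not with DESeq2 (-0.57). Close inside the mark lay Rpl6l and Rpl6 (-0.57 and -0.55). Rpl28, at 6.44 and 3.36 CPM, fell just under the level required, and its log2 ratio was -0.77.

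**Figure D3:**
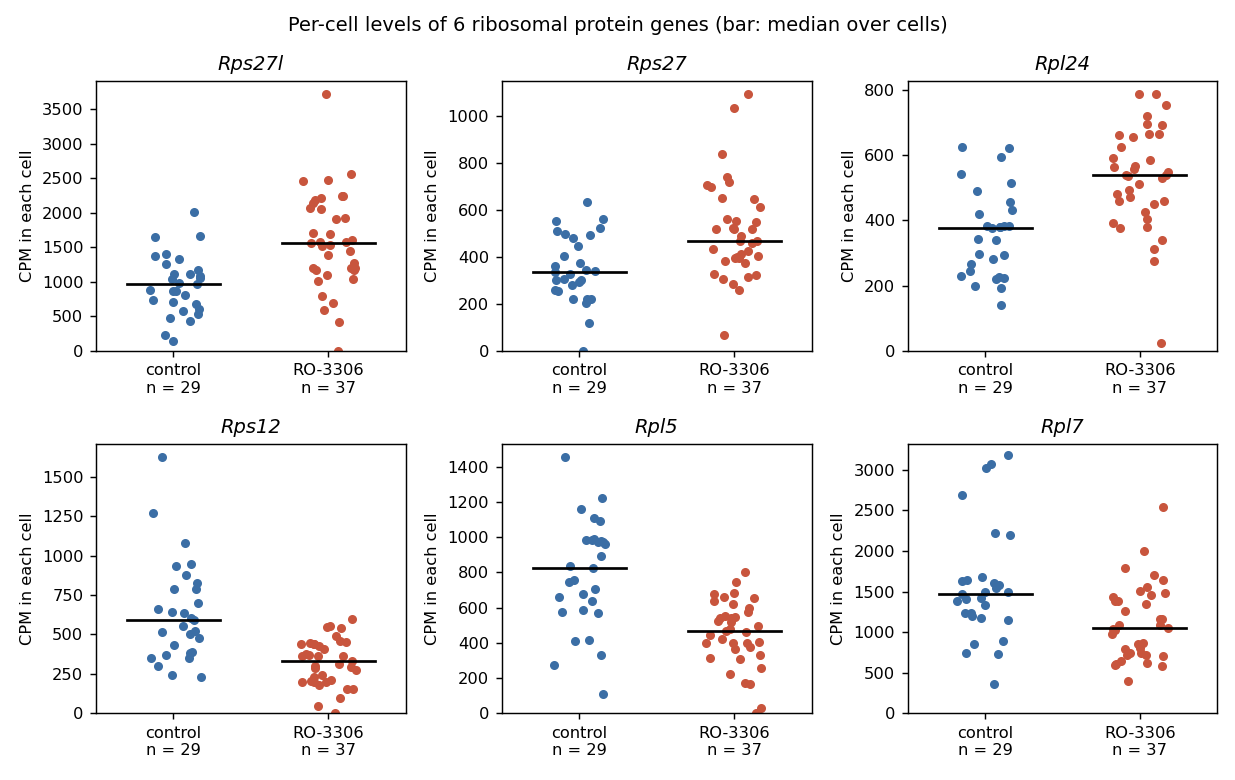
CPM of 6 ribosomal protein genes in each kept cell, on linear axes from 0, with a bar at the median of 29 control and 37 RO-3306 cells. The bars stand at 971 and 1562 CPM for Rps27l, at 589 and 335 CPM for Rps12 and at 825 and 466 CPM for Rpl5, and the points overlap in every panel.

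By role, 3 of the 4 P stalk genes were above 0, against 3848 of all 9374 genes of at least 5 CPM. All 4 had a mean of at least 500 CPM, a level at which 188 of 351 genes were above 0. The stalk recruits the GTPase factors of elongation, and Rplp0 anchors it. Rplp0 had 2518 CPM and 3516 CPM (log2 ratio 0.48, above 0 in all 4 sets). Its cells ran from 1248 through 2612 to 7116 CPM and from 636 through 3258 to 6510 CPM. Rplp2 had 904 and 1105 CPM (0.29), Rplp1 720 and 754 CPM (0.07), and Rpl12, at the stalk's base, 924 and 766 CPM (-0.27). The list's median was 0.18 and none of its genes was past 1.5-fold with scaling by totals. In sets A to D the list's median was -0.10, 0.28, 0.26 and 0.34. In set A Rplp1 (-0.09) and Rplp2 (-0.11) were below 0. Of the counts on Rplp0 and Rplp1 together, Rplp0 took 77.8% in control and 82.3% in RO-3306.

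The 8 genes around the exit tunnel, through which the new protein leaves, stayed within -0.27 (Rpl39) and 0.10 (Rpl31), with a median of -0.13 and none past 1.5-fold. Rpl4, whose loop lines the tunnel, had 2260 and 2080 CPM (-0.12). On the small subunit, the genes at the mRNA entry and exit had a median of -0.29. Rps2 (952 and 658 CPM, -0.53) and Rps3 (1041 and 849 CPM, -0.29), both at the entry, were below 0 in all 4 sets, while Rps14 (0.06) and Rps26 (-0.15) at the exit were mixed.

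Rps6, the substrate by which S6 kinase activity is often read, had 642 and 571 CPM (-0.17, below 0 in all 4 sets). Rps27a, made as a fusion with ubiquitin, had 1854 and 1478 CPM (-0.33), and Rpsa, also known as a laminin receptor, 1328 and 1032 CPM (-0.36). Both were below 0 in all 4 sets. The genes mutated in Diamond-Blackfan anaemia, a failure of red cell formation, were 19. Of these, 6 were above 0 and 13 below, against 3848 and 5526 of all genes of at least 5 CPM. Their median was -0.15, with -0.37, -0.06, 0.06 and 0.21 in sets A to D. Only Rpl5 and Rps28 of the 19 were past 1.5-fold, both lower. Of all genes, 36.2% of those of at least 5 CPM and 10.3% of those of at least 500 CPM were that much lower.

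Sign was the same in all 4 lettered sets for 32 of the 76 genes: 8 were higher in RO-3306 and 24 lower. Among all genes of at least 5 CPM, 13.1% were higher in all 4 sets and 10.3% lower, and among those of at least 500 CPM 29.9% and 22.5%. Of the 49 ribosomal protein genes of at least 500 CPM, 7 were higher and 16 lower in all 4 sets. With TMM scaling the counts over the 76 genes were 19 higher and 7 lower, and with DESeq2 size factors 18 and 6. The shares of all genes were then 17.5% higher and 7.72% lower with TMM and 17.2% and 7.87% with DESeq2 size factors, so that the 7 and 6 lower genes were near the background. The 8 were Rps27l, Rpl24, Rplp0, Rps9, Rpl21, Rpl41, Rpl30 and Rpl23. In set A 66 of the 76 genes were below 0, against 33 in set D. The sets shifted as blocks, with median log2 ratios of -0.30, -0.08, -0.03 and 0.19 in sets A to D, against -0.08, -0.26, 0.41 and 0.24 over all genes. The order of the genes was shared more than the level: between sets, which share no cells, the correlation of the 76 ratios ran from r = 0.48 (A with C) to 0.71 (C with D). Genes are not independent replicates, and sets share the genes' sequence, length and counting.

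Levels can be compared between genes only per length of mRNA. On that scale the 75 genes with a length ran from 86.3 to 2780 CPM per kb as the mean of the groups, with a median of 932 and quartiles of 552 and 1302. The highest were Rpl32 (2676 CPM per kb in control and 2883 in RO-3306), Rps27l (1923 and 3326) and Rps27a (2911 and 2320). Per length, Rps27l was thus among the most abundant members, above its sister Rps27. Multi-mapped reads were split between sites, so that these levels also depend on near-identical copies, and that part was not tested. Fractional values stood in 57.3% of the libraries with a count on Rps27l and 73.3% of those with one on Rps27. Rps15a was lowest, but its annotated mRNA of 5130 nt is the longest of the list for a coding sequence of 390 nt. Log2 levels per kb in control and RO-3306 went together across the genes with r = 0.96.

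**Figure D4:**
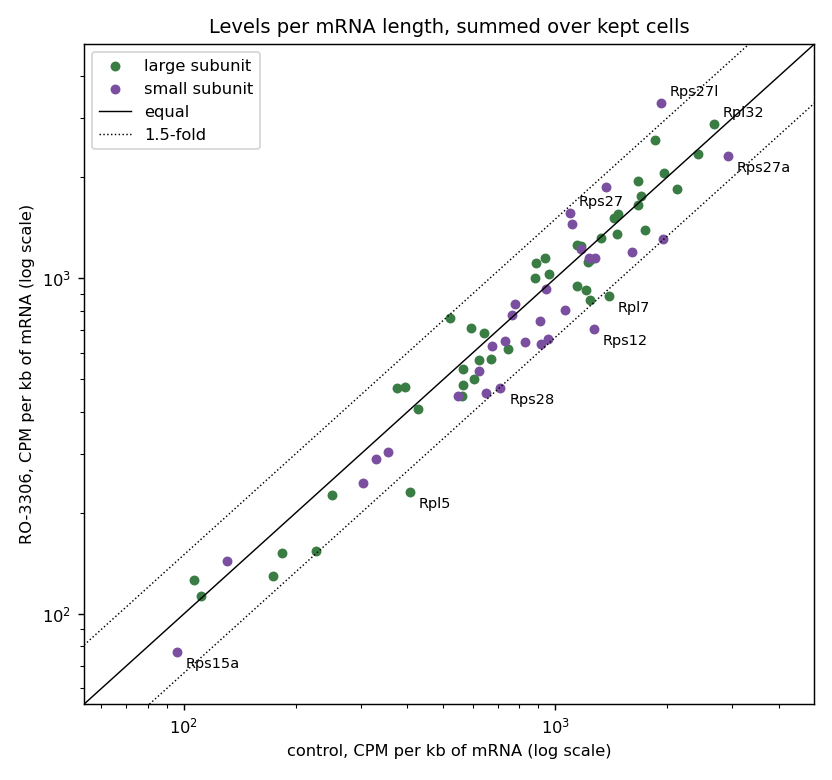
CPM per kb of mRNA in RO-3306 against control for 75 ribosomal protein genes, on log axes, with the line of equal levels and dotted lines at 1.5-fold. Most points lie between the dotted lines, with Rps27l above them, and Rps12, Rpl5, Rpl7 and Rps28 below.

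The ribosomal protein genes parted from other short mRNAs. Over all genes of at least 5 CPM with a length, the log2 ratio went down with mRNA length (rho = -0.36 over 8838 genes). In the shortest of 10 length bins, 311 to 1152 nt, the 61 ribosomal protein genes had a median of -0.10 and the other genes 0.30. Within the ribosomal protein genes rho was -0.17 with mRNA length and -0.35 with coding length. After the median of genes of like length was taken off, the median of the ribosomal protein genes was -0.33, which moved it away from 0.

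**Figure D5:**
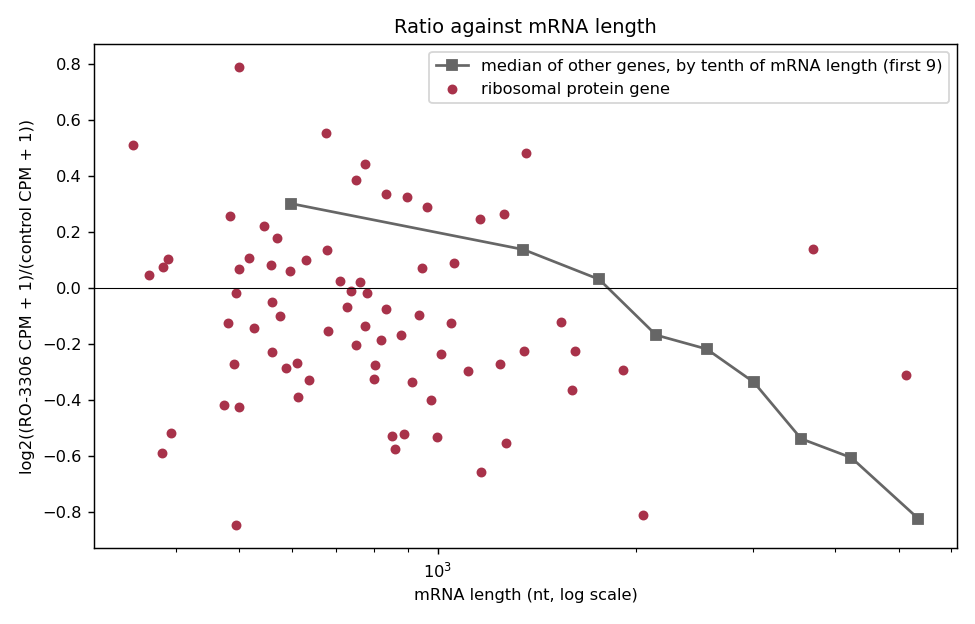
Log2 ratio of RO-3306 to control against mRNA length on a log axis for 75 ribosomal protein genes (red) and, as grey squares, the median of all other genes in the first 9 of 10 length bins, each set at the middle of its bin. The other genes run from 0.30 in the shortest bin to -0.82 in the ninth, and most of the short ribosomal protein genes lie below the grey line.

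Ribosomal protein mRNAs also varied little from cell to cell. Cells were thinned to 639000 counts (25 control and 34 RO-3306 cells), and 4 control and 3 RO-3306 cells were too shallow and left out. Among these were control D10 and RO-3306 A11, with the lowest ribosomal protein share of each group, control C3, with the highest of control, and RO-3306 B3. Over the 75 genes of at least 50 CPM, the coefficient of variation of CPM over the thinned cells had a median of 0.37 in control and 0.32 in RO-3306. For genes of at least 500 CPM it was 0.47 and 0.39, and for those of at least 50 CPM 1.24 and 0.90. The coefficient was lower in RO-3306 for 47 of 75 ribosomal protein genes. It was lower for 82.1% of all genes of at least 50 CPM and for 261 of 351 genes of at least 500 CPM. It includes sampling and amplification as well as differences between cells.

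Core proteins that the symbol rule does not reach gave like values. Fau, which encodes a small subunit protein fused to a ubiquitin-like one, had a log2 ratio of 0.11. Rps3a1 had -0.34 and Rack1, a signalling scaffold on the small subunit, -0.42. Of 16 other TOP mRNAs, which encode elongation factors and partners of translation, 5 were above 0 and 11 below, with a median of -0.27. All genes of at least 5 CPM had 3848 above 0 and 5526 below, with a median of -0.22. Most of the 16 had a mean of at least 500 CPM, a level at which all genes had 188 above 0 and 163 below, with a median of 0.05. Eif3f was past 1.5-fold higher (81.4 and 132.7 CPM, 0.70, but -0.36 in set C), and the poly(A)-binding protein gene Pabpc1 was past 1.5-fold lower (1545 and 980 CPM, -0.66, below 0 in all 4 sets). Of all genes of at least 5 CPM, 20.6% were that much higher and 36.2% that much lower. For those of at least 500 CPM the shares were 17.7% and 10.3%.

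Of 11 regulators of the family, 2 were past 1.5-fold higher and 7 lower, against 20.6% and 36.2% of all genes. The median of the regulators was -0.75, but it changed sign between sets, with -0.79, -0.14, 0.52 and 0.50 in sets A to D. Eif4ebp2, 1 of the 2 higher, had a count in only 4 control and 8 RO-3306 cells. The quartiles of the regulators lay 1.10 apart, against 1.41 for all genes and 0.41 for the ribosomal protein genes. Eif4ebp1, whose product holds back cap-dependent translation, had 704 and 1067 CPM (0.60, above 0 in all 4 sets). Mtor had 27.4 and 14.8 CPM and ratios from -3.93 to 2.01 between sets, and Larp1 had 114.4 and 36.8 CPM with ratios from -4.34 to 1.43. Of 7 dedicated chaperones and assembly factors, 1 (Pdcd2, an Rps2 chaperone, 63.5 and 129.7 CPM) was past 1.5-fold higher and 3 lower. As comparison, the 76 mitochondrial ribosomal protein genes had a median of 0.11, with 9 past 1.5-fold higher and 5 lower. The 36 proteasome subunit genes had a median of -0.18, with 2 past it in each direction and quartiles of -0.39 and 0.04, a spread like that of the cytosolic ribosomal protein genes.

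Counting bears on the members that were not measured. Rpl32l lies wholly inside the span of Map7 and was at 0 in every kept cell, where a read that fell in 2 spans was left out. Other spans cover 76.3% of Rpl28, 47.2% of Rpl18, 28.8% of Rpl37 and 24.5% of Rpsa. Rpl3l, Rpl10l and Rpl39l, paralogs known from muscle or testis, were also at 0, with no span over them. For these paralogs, the limit that 3 counts of the group total set was 0.0454 CPM without and 0.0323 CPM with RO-3306. All 76 genes with a ratio held fractional counts in some library, for a median gene in 82.8% of its libraries. RefSeq names 315 pseudogenes after 62 of the members, and across the 76 genes the fractional share went with their number (rho = 0.63). Only 16 pseudogene rows were counted in the files, with 213.1 and 194.8 CPM in the groups.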

How the data were processed

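Expression was measured in 96 single-cell libraries (SMART-seq v4, single reads of 150 nt), per the labels' protocols. The authors deposited expected counts, 1 file per library, made with featureCounts 2.0.3 on the GRCm39 RefSeq annotation, per the file headers. Per the headers, counting covered gene spans from end to end with their introns, and multi-mapped reads gave an equal fraction to each site. Options for strand and for overlapping spans are absent from the headers, so that by the tool's defaults strand was ignored and reads over more than 1 span were left out. STAR and FastQC are named in the submitters' processing notes, and the read filters are not given in the sources used here. Every column matched 1 library title.

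For each group, the counts of its kept cells were added up and scaled to CPM, and a pseudocount of 1 CPM was added before log2. Fractional counts were rounded for intervals, thinning and scaling factors, and a value over 1e-06 from a whole number was called fractional. A gene was called past a fold at 1.5-fold. mRNA lengths came from GENCODE M21 (principal isoform, best support, longest coding sequence, then shortest mRNA), by symbol, with a length for 94.3% of genes of at least 5 CPM. Python 3.11.15, numpy 2.4.6, pandas 2.3.3 and scipy 1.17.1 were used, with edgeR 4.0.16 and DESeq2 1.42.0 in R 4.3.3 for scaling factors only. The ratio and interval steps were tested on simulated counts. No doublet caller was run.

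The members, gene lists and measures were chosen with earlier results of these data known. Genes were named by role (P stalk, 5S ribonucleoprotein, exit tunnel, mRNA entry and exit, ubiquitin fusion, Rps6, Rpsa, Diamond-Blackfan anaemia, paralog pairs), as the 5 highest and 5 lowest ratios, as the 3 highest levels per length, as lying inside other spans, or by lists of related pathways. Some genes these rules take are not reported here. Rps9, Rpl21, Rpl41, Rpl30, Rpl23 and Rpl6 were named after their values were seen, and so were the 3 libraries said to stand apart. Alternatives changed the cells kept, the scaling, the denominator, the pseudocount, the filter and the fold. Leaving out single cells was added after seeing the data.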

Additional observations from a re-analysis of the deposited data

Results flagged for a closer look

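In the 11 RO-3306 libraries below the limits for a kept cell, ribosomal protein genes took 2.65% of counts (2.62% to 2.68%), against 0.929% (0.897% to 0.962%) in the 19 control libraries left out. These libraries enter no comparison above. One library, RO-3306 D5, held 66.5% of the RO-3306 counts, with 87.3% of its own on mitochondrial genes and 0.73% on ribosomal protein genes. Without it the share was 6.46% (6.39% to 6.54%), and the mitochondrial share fell from 63.1% to 15.03%. RO-3306 D4 held 184369 of the 389066 counts that remained, with 9.72% of its own on ribosomal protein genes. The place of that share above the 5.53% of kept RO-3306 cells thus rests largely on D4, which the counting interval does not cover. Without the deepest control library the control share was 1.04%, a step added after seeing the data. Single RO-3306 libraries ran from 0.73% through a median of 3.95% to 38.4%, and control libraries of at least 1000 counts from 0% through 0.198% to 9.30%. The part of RNA quality was not tested.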

How the results depend on the processing

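No paired analysis was possible because each treatment is 1 sample, the numbers in the titles tie no cells together and no result comes from a test. The difference in summed share (-0.26 percentage points) was -0.28 with cells of at least 10000 counts, 0.11 without set A, -0.49 without B, -0.34 without C, -0.33 without D, -0.47 with cells weighted equally, -0.33 after thinning, -0.17 of nuclear counts and -0.24 without the cell of lowest share in each group. Leaving out each cell in turn gave -0.44 (control B4) to -0.19. The difference in cell medians (-0.64) was 0.20 without set A and -0.32 with cells of at least 10000 counts, and -0.69 to -0.61 over single cells. The median log2 ratio (-0.12) was -0.025 without set A, -0.18 without B, -0.16 without C, -0.17 with cells weighted equally, -0.16 after thinning, -0.10 of nuclear counts, 0.087 with TMM, 0.11 with DESeq2 size factors, -0.10 for at least 500 CPM and -0.33 after correction for mRNA length. Over single cells it ran from -0.17 to -0.10. Genes past 1.5-fold higher (1) numbered 5 without set A, 0 without B, 2 after thinning, 6 with TMM and 6 with DESeq2, and 1 to 2 (control A9) over single cells. Those lower (4) numbered 7 without C, 7 without D, 2 with TMM, 1 with DESeq2 and 2 for at least 500 CPM, and 2 (control B5) to 7 (RO-3306 C5) over single cells. At 2-fold both were 0. Genes higher in all 4 sets (8) numbered 24 in the remaining 3 without set A, 19 with TMM and 18 with DESeq2, and 4 (RO-3306 A5) to 11 over single cells, with 5 without control A3. Those lower (24) numbered 7 with TMM and 6 with DESeq2, and 18 to 25. Of 1155 member ratios under the planned settings, 568 lay within their counting interval and 587 outside it, and none past 1.5-fold changed sign. Of the regulators, Tsc2 (-0.62) was 1.20 without set B and 1.13 with equal weights, and Mtor (-0.85) was 0.31 after thinning. The causes were not tested. With cells of at least 100000 counts the share and median differences, and the counts of genes, stayed within counting error or 1.5 times. Counting intervals leave out the spread between cells and cultures.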
